A study of Mus musculus with 28 samples.

Results

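The classical complement components examined were 7 genes, *C1qa*, *C1qb*, *C1qc*, *C1ra*, *C1s1*, *C2* and *C4b*, of the 37206 genes to which the transcripts of this mouse RNA-seq series could be assigned. They were listed for their place in the pathway, with earlier results of these data known. The value of a gene was the sum of the RPKM (reads per kilobase of transcript, scaled to the mapped reads of the library) of its transcripts. RNA came from 28 libraries of 13 mice: 1 wildtype whole ovary, 7 whole testes (2 wildtype, 5 knockout) and 20 libraries of germ cells sorted by Hoechst staining from 8 mice (9 wildtype, 11 knockout). The labels give all mice as C57BL/6 and the methods give a mixed background for the knockout strain, a constitutive allele in which exon 1 and part of intron 1 of *Csmd1* are replaced by a lacZ/neomycin cassette. The methods give males for sorting as about 40 days old, with an age listed by mouse only for 178 and 351. The study also sequenced whole testes of sexually immature mice. Whether the whole testes used here differ in age cannot be told, since only that of mouse 178 has an age listed. The sorted groups were spermatogonia (wildtype mice 178 and 648, knockout mice 286 and 544), primary spermatocytes (wildtype 178 and 648, knockout 544, 550, 613 and 614), secondary spermatocytes (wildtype 178 and 648, knockout 286, 544 and 550) and spermatids (wildtype 178, 351 and 648, knockout 286 and 544).

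The classical pathway starts when C1q, a protein built from A, B and C chains in equal number, binds antibody on a surface or other ligands. C1q then activates the protease C1r, C1r activates the protease C1s, and C1s cleaves C4 and C2, whose fragments form the enzyme that cleaves C3. In most tissues C1q is made mainly by macrophages and C1r and C1s by fibroblast-like cells, while plasma C2 and C4 come largely from the liver. *Csmd1* encodes a large transmembrane protein of CUB and Sushi domains, which complement regulators share, and the series asks how its loss acts on the gonads.

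On GRCm38, the C1q chains lie side by side on the minus strand of chromosome 4, *C1qb* at chr4:136880129-136886187, *C1qc* at chr4:136889804-136893065 and *C1qa* at chr4:136895917-136898803. *C1ra* (chr6:124512405-124523443, plus strand) and *C1s1* (chr6:124530345-124542359, minus strand) are neighbours on chromosome 6. *C2* (chr17:34862604-34898265) and *C4b* (chr17:34728380-34743882) lie on the minus strand of chromosome 17. The antisense gene *Gm16567* overlaps *C1s1*, and *Zbtb12* on the other strand overlaps *C2*. Whether counting used strand is not given in the sources used here.

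Because the neighbouring C1q genes moved together across libraries, and likewise *C1ra* and *C1s1*, the 250 bases before the RefSeq start (GRCm38.p6) of the 4 genes found in the RefSeq table are shown, 5′ to 3′ on the strand of the gene. Capitals mark AGGAAG on either strand (CTTCCT on the other), letters found within the motif of PU.1, a transcription factor of macrophages.
*C1qb*, chr4:136886201-136886450, minus strand: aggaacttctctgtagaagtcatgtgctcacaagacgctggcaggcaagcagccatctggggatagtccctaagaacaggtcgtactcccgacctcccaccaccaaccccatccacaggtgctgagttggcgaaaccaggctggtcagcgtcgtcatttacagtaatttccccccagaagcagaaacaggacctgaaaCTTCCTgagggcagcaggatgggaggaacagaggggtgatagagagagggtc
*C1qc*, chr4:136892915-136893164, minus strand: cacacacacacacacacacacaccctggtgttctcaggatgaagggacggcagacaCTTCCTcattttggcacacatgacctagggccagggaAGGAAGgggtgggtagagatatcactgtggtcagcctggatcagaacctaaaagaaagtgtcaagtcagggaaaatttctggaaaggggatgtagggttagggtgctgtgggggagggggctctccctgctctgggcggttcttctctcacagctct
*C1ra*, chr6:124512371-124512620, plus strand: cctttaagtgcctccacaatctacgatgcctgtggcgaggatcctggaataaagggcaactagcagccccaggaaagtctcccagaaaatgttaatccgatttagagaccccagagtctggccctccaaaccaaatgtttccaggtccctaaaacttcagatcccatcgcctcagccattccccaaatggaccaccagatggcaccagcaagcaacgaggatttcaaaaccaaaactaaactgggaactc
*C1s1*, chr6:124542360-124542609, minus strand: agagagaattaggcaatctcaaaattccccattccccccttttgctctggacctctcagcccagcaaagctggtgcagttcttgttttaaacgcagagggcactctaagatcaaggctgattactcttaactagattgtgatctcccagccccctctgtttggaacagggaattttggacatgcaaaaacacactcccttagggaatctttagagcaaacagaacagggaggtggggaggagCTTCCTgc
AGGAAG occurred 1 time before *C1qb*, 2 times before *C1qc*, 1 time before *C1s1* and 0 times before *C1ra*. The RefSeq starts of *C1ra* and *C1qc* lie inside the gene extents given above, so these windows are partly within the genes and not wholly upstream. Of 32851 windows of this length before RefSeq genes, 29.5% held it. TATAAA (12.4% of windows) and CCAAT (33.9%) were in none (0) of the 4. A match of letters is a description and not a binding site. *C1qa*, *C2* and *C4b* had no entry in the table.

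Sequencing depth was recovered from the whole-read steps of the RPKM values in 27 libraries, at 23820618 to 61684564 mapped reads. In the column of knockout mouse 613, the steps were not whole and the depth is unknown. The full-length *Csmd1* transcript (70 exons in the annotation) ranged from 0.0080 to 0.517 RPKM in the 11 wildtype testis libraries and from 0 to 2.0 RPKM in the 16 knockout ones. Its lowest and highest libraries were both knockout, and the value covers far more than the deleted exon, so it does not check the genotype, which rests on the labels. Libraries also differed in cell content. The spermatid gene *Prm1* was at 1402 RPKM in the spermatogonia of mouse 544 and at 0.579 RPKM in the spermatids of mouse 648, and macrophage, stromal and Leydig cell genes were highest among testis libraries in the spermatogonia of mouse 648.

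In spermatogonia, transcripts of the C1q chains, of the proteases *C1ra* and *C1s1* and of *C2* were higher than in the later stages, whereas *C4b* was lower. Of the 7 genes, 6 passed the test as higher and 1 as lower, where 27% of all 19049 genes tested were called higher and 13.3% lower (limma, adjusted p below 0.05). The median difference of the 7 genes was 2.11 and that of all genes 0.21, on the scale of log2(RPKM + 0.1), which understates the change of low values. With quantile normalization, which moved the median of all genes to -0.08, 3 genes were higher and 1 lower, and 49.6% of all calls were higher in place of 67.1%. Of all genes, 41.8% were then called in either direction, against 40.3% without it. That *C4b* ran against the other genes was known from these libraries when the genes were listed. Its call and the opposite direction of the other genes are therefore no independent support. Overlap between libraries is described below for single genes, and the share of all genes without overlap was not computed.

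The A chain of C1q was low throughout. *C1qa* was at 0.890 and 0.572 RPKM in the wildtype spermatogonia (mice 178 and 648) and at 0.105 and 0.181 RPKM in the knockout spermatogonia (mice 286 and 544). It was at 0 in 4 of 6 primary spermatocyte libraries, with 0.0710 RPKM in mouse 550 and 0.0929 RPKM in mouse 613. Spermatogonia did not overlap with primary spermatocytes but did with secondary spermatocytes (0.0940 to 0.657 RPKM), and 10 of the 26 testis libraries of known depth held 3 reads of *C1qa* or fewer. Spermatogonia exceeded the later stages by 1.19 (SE 0.39, limma adjusted p = 0.0220).

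*C1qb*, the B chain, was at 4.51 and 7.55 RPKM in the wildtype and 1.27 and 2.79 RPKM in the knockout spermatogonia, in the same order of mice. In primary spermatocytes it ranged from 0 to 1.36 RPKM, with the highest value in mouse 613. The range was 0.849 to 2.30 RPKM in secondary spermatocytes and 0.0560 to 2.98 RPKM in spermatids. Both wildtype spermatogonia libraries lay above all 16 later libraries, while the knockout ones lay within their range. The difference was 2.34 (SE 0.73, limma adjusted p = 0.0181).

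*C1qc*, the C chain, was at 1.99 and 5.45 RPKM in wildtype and 0.678 and 0.898 RPKM in knockout spermatogonia. Primary spermatocytes held 0 to 0.10 RPKM and spermatids 0.0160 to 0.615 RPKM, both without overlap with spermatogonia. Secondary spermatocytes, at 0.620 to 1.65 RPKM, overlapped with them. At 2.21 (SE 0.47, limma adjusted p = 0.00179), this difference had the smallest adjusted p of the 7 genes.

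*C1ra*, which encodes the protease C1r, was at 1.56 and 7.98 RPKM in wildtype and 2.07 and 0.439 RPKM in knockout spermatogonia. It ranged from 0.0740 to 0.216 RPKM in 5 primary spermatocyte libraries and reached 2.36 RPKM in the remaining one, of mouse 613. Secondary spermatocytes were at 0.375 to 1.81 RPKM and spermatids at 0.0350 to 0.342 RPKM. Only the spermatogonia of mouse 648 exceeded all later libraries. The difference was 2.11 (SE 0.65, limma adjusted p = 0.0168).

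*C1s1*, which encodes the protease C1s, was at 1.74 and 25.2 RPKM in wildtype and 7.32 and 1.37 RPKM in knockout spermatogonia. Both mice with the high values, 648 and 286, also had the highest values in secondary spermatocytes, 5.39 and 6.99 RPKM. Primary spermatocytes ranged from 0 to 4.99 RPKM, again highest in mouse 613, and spermatids from 0 to 0.907 RPKM. The difference of spermatogonia from the later stages was 2.68 (SE 0.89, limma adjusted p = 0.0236).

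*C2*, the serine protease that joins with C4b in the C3-cleaving enzyme, was at 6.89 and 23.7 RPKM in wildtype and 5.03 and 4.39 RPKM in knockout spermatogonia. Primary spermatocytes ranged from 0.608 to 9.46 RPKM, secondary spermatocytes from 2.90 to 5.83 RPKM and spermatids from 0.959 to 4.68 RPKM. Transcripts of *C2* that lie upstream of its main body, where *Zbtb12* overlaps, made up 55.1% of the sum in the spermatids of mouse 178 and 46.6% in the spermatogonia of mouse 286. The difference was 1.66 (SE 0.50, limma adjusted p = 0.0142), and 1.52 with the longest transcript in place of the sum.

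*C4b*, which encodes complement C4, had the opposite course. It was at 0.510 and 1.11 RPKM in the wildtype spermatogonia and at 0.342 RPKM in those of knockout mouse 286, but at 7.82 RPKM in those of knockout mouse 544. Primary spermatocytes ranged from 1.88 to 10.25 RPKM, secondary spermatocytes from 4.01 to 9.51 RPKM and spermatids from 2.77 to 7.33 RPKM. Thus 3 of the 4 spermatogonia libraries lay below all 16 later libraries, and the library with the high value was the one with *Prm1* at 1402 RPKM.

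The difference of *C4b* was -1.96 (SE 0.61, limma adjusted p = 0.0178). That *C4b* ran opposite to the other genes was known from these libraries when the genes were listed. The p-values given above and below for spermatogonia against later stages, for *C4b* and for the other genes, therefore describe these directions. They are no independent support for them. Reads of *C4b* were not scarce, with 39 to 472 estimated reads on its longest transcript in spermatogonia. The near-identical copy *C4a*, at 1.43 to 6.17 RPKM in spermatogonia and 1.4 to 8.20 RPKM in the later stages, shared 16.3% of the windows of read length in *C4b*. With the copy added, the *C4b* difference was -1.11 and no longer passed the test (adjusted p = 0.0583).

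**Figure D1:**
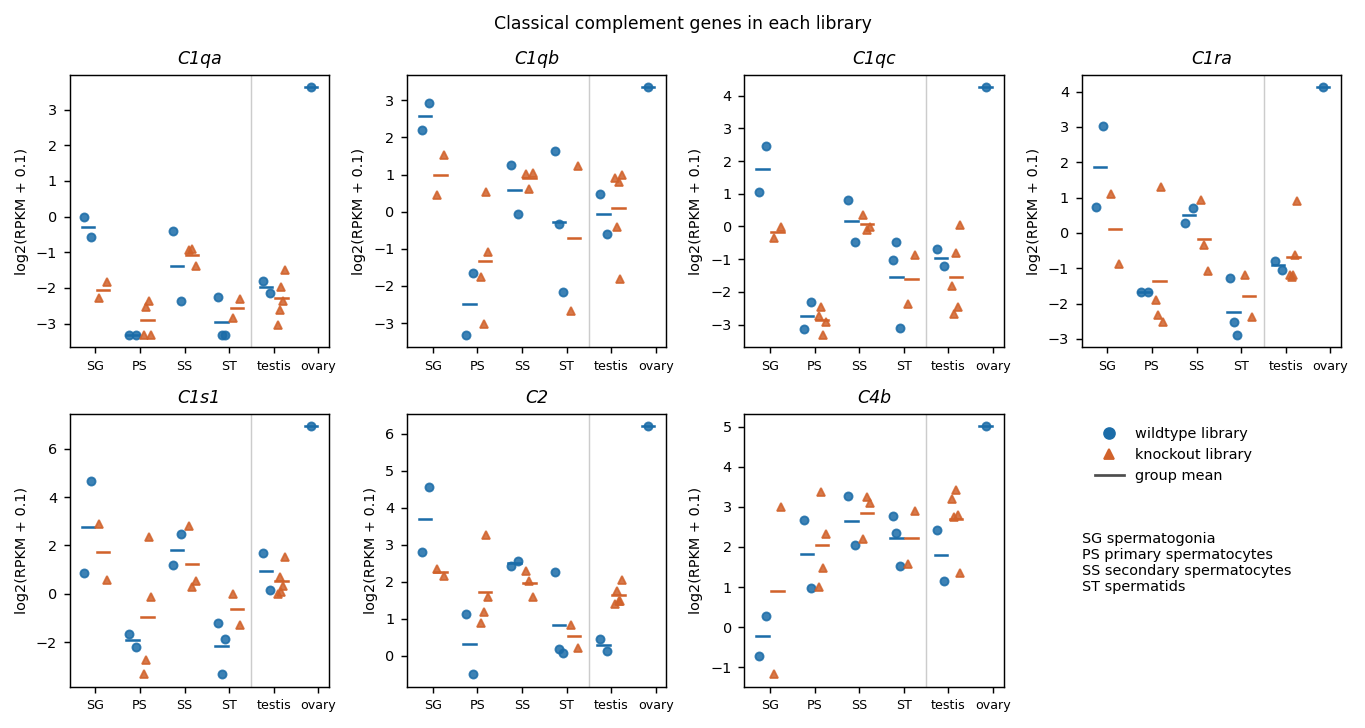
Level of each classical complement gene by stage or tissue, as log2(RPKM + 0.1) on the vertical axis, with 1 point per library (circles wildtype, triangles knockout) and a bar at each group mean. The 6 genes other than *C4b* were lowest in primary spermatocytes or spermatids and *C4b* in 3 of the 4 spermatogonia libraries, and the ovary was the highest library for all 7 genes.

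Within mice, the spermatogonia library was set against the mean of the later stages of the same mouse, for the 4 mice with both. Mouse 286 had no primary spermatocyte library, so its later stages were secondary spermatocytes and spermatids only. *C1qb*, *C1qc*, *C1ra*, *C1s1* and *C2* were higher in spermatogonia in 4 of 4 mice and *C1qa* in 3 of 4. The share of all genes higher in 4 of 4 mice was not computed, so these counts are not shown to be particular to the members. The mean difference of *C2* was 1.66 (exact permutation test within mice, two-sided p = 0.0104) and that of *C1qb* 2.34 (exact p = 0.0573). *C1qc* differed by 2.12 and *C1s1* by 2.53 (both exact p = 0.0417), and *C1ra* by 1.95 (exact p = 0.0365). *C1qa* differed by 1.09 (exact p = 0.135), with -0.40 in mouse 286. These are unadjusted values for each of 7 genes.

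*C4b* was lower in spermatogonia by -3.62 in mouse 178, -3.07 in mouse 286 and -1.25 in mouse 648, and higher by 0.60 in mouse 544 (mean -1.83, exact p = 0.0312). Set against the mean of the C1q chains, *C4b* was lower in 4 of 4 mice. The values were -5.79, -3.58, -0.42 and -4.94 in mice 178, 286, 544 and 648 (mean -3.68). No test is given for this contrast, since the opposite course of *C4b* was known from these libraries when the genes were listed.

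**Figure D2:**
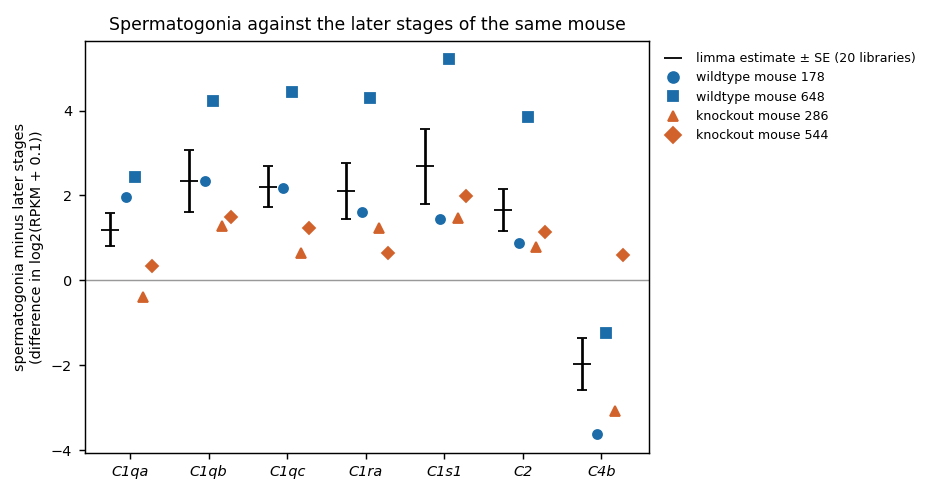
Spermatogonia minus the later stages in log2(RPKM + 0.1) for each gene, with the limma estimate and its SE (black, 20 libraries) and 1 coloured symbol for each of the 4 mice. Mouse 648 had the largest positive difference for the 6 genes other than *C4b*, and *C4b* was below 0 in all mice but 544. Later stages of mouse 286 lack primary spermatocytes.

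These calls rested on few mice. Most were lost without mouse 286 or without mouse 648, and the share of all genes called fell as well. Leaving out either mouse leaves 1 spermatogonia library in its genotype, so only sizes of differences are given. *C1qc* kept its call in both and was at 1.685 without mouse 648. The call of *C4b* was lost without mouse 286, where it was at -1.09, and without mouse 178. The directions of all 7 genes held in each of the alternative settings run. Without mice 648 and 613 and the spermatogonia of mouse 544, which were doubted for their cell content, *C4b* was at -3.58. That also left 1 spermatogonia library per genotype. Among the sorted libraries of mice 178, 286 and 351, which lack values for the same transcripts and hold 1 spermatogonia library per genotype, 0 of 7 genes passed, as did 0 of all 22183 genes.

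By genotype, the wildtype spermatogonia differed from the wildtype later stages in all 7 genes, 6 higher and 1 lower, against 23.8% of all genes higher and 12% lower. *C1s1* had the largest difference, 3.52 (SE 1.27, limma adjusted p = 0.0391), and *C4b* had -2.45 (SE 0.88, limma adjusted p = 0.0379). The wildtype calls were all lost without mouse 648, as were those of all other genes, and part of them were lost without mouse 178. The wildtype call of *C4b* was also lost without mouse 351, with a pseudocount of 1, with no filter on low values and with *C4a* added. In the knockout, 0 of 7 genes passed (limma), against 0.64% of all genes, and 0 were below an unadjusted p of 0.05, against 17.7% of all genes. The knockout values kept the signs of the wildtype ones, from -1.47 (SE 0.86) for *C4b* to 1.85 (SE 1.24) for *C1s1*, with *C1qa* at 0.12 (SE 0.54).

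The difference between the genotypes in the step from spermatogonia was itself tested. It passed in 0 of 7 genes and in 0% of all genes (limma), with 1 of the 7 at an unadjusted p below 0.05, against 6.24% of all genes, *C1qa* at -2.14 (SE 0.78, adjusted p = 0.789). A smaller step in the knockout than in the wildtype was therefore not shown.

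From spermatogonia to primary spermatocytes, 6 of the 7 genes fell, against 22% of all genes called lower. The values ranged from -1.93 (SE 0.46, limma adjusted p = 0.00441) for *C1qa* to -3.69 (SE 0.86, adjusted p = 0.00412) for *C1qb*, and *C4b* was at 1.60 (SE 0.72, adjusted p = 0.103). Fewer of the genes passed without mouse 286 or without mouse 648, and the share of all genes called fell as well.

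From primary to secondary spermatocytes, *C1qa* rose by 1.88 (SE 0.43, limma adjusted p = 0.0305) and *C1qc* by 2.92 (SE 0.53, adjusted p = 0.0143), 2 of 7 genes, against 2.85% of all genes called higher. The other C1q chain, *C1qb*, was at 2.65 (SE 0.82, adjusted p = 0.0772). With the mouse as a replicate block, 5 genes were called higher, where the share of all genes called was 19.9%. Without mouse 550, 0 of the 7 passed, as did 0 of all 19027 genes. Without mouse 613, 5 passed, where 7.73% of all genes were called. Fewer also passed without mouse 178, 544 or 648.

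From secondary spermatocytes to spermatids, 0 of 7 genes passed (limma), against 0.541% of all genes, while 5 of 7 were below an unadjusted p of 0.05, against 17.6% of all genes. *C1s1* was at -2.91 (SE 1.02, adjusted p = 0.157), *C1ra* at -2.17 (SE 0.75, adjusted p = 0.153) and *C4b* at -0.53 (SE 0.70, adjusted p = 0.732). With the replicate block, 4 genes were called lower, where 10.4% of all genes were called.

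Levels were compared between genes on the longest transcript, since overlapping transcripts of a gene held the same reads. For the A, B and C chains of C1q, this gave unequal values in testis. *C1qb* was the highest of the chains in 25 of 27 testis libraries and made up over 50% of their summed RPKM in 24. Some of these comparisons rest on few reads. Of the 26 testis libraries of known depth, 10 held 3 reads or fewer of *C1qa* and 7 of *C1qc*. The 27 include mouse 613, whose column splits reads between transcripts. In the wildtype spermatogonia of mouse 178, *C1qa* was at 0.890, *C1qb* at 4.51 and *C1qc* at 1.95 RPKM, with *C1qb* at 61.3% of the sum. In the whole testis of knockout mouse 214, the chains were at 0.0220, 1.76 and 0.0380 RPKM, with *C1qb* at 96.7%. The *C1qa* value there rested on 1 estimated read.

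The ovary differed. There the chains were near one another, with *C1qa* at 12.3, *C1qb* at 10.2 and *C1qc* at 13.1 RPKM, and *C1qb* at 28.5% of the sum. Across the 27 testis libraries, the gap of *C1qb* over the mean of the other chains had a Pearson correlation of 0.52 with the spermatid gene content of the same library, given as a description over libraries that share mice and depth. The A and B chains shared no window of read length.

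**Figure D3:**
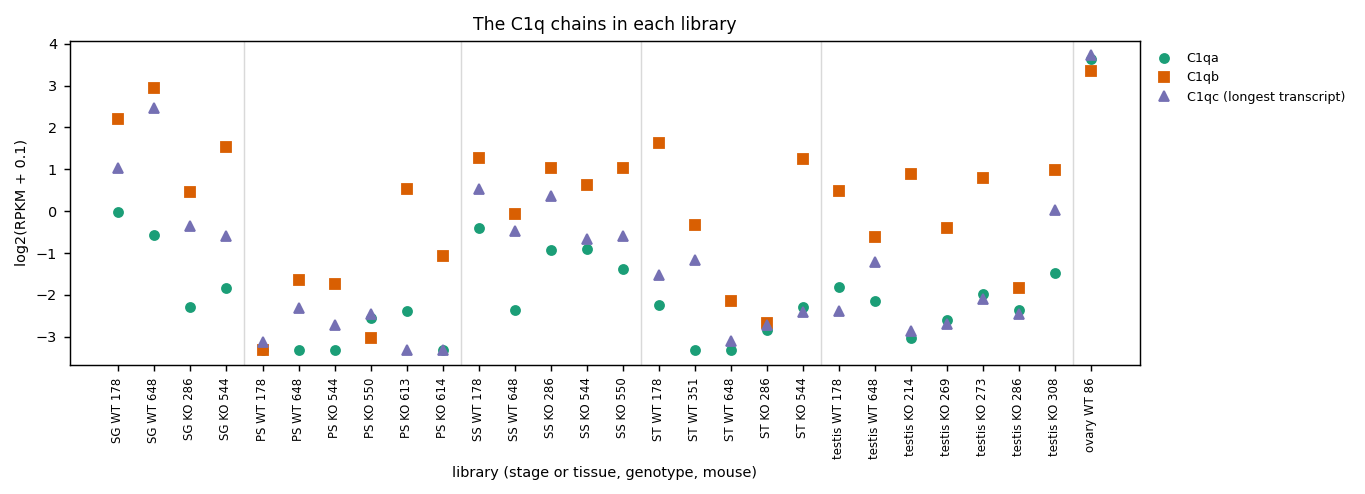
The C1q chains in each of the 28 libraries, with log2(RPKM + 0.1) of the longest transcript on the vertical axis and libraries ordered by stage or tissue, genotype and mouse. *C1qb* (squares) was above *C1qa* and *C1qc* in 25 of 27 testis libraries, and the chains lay close together in the ovary.

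Each gene was set beside the macrophage and stromal genes of the same library. Of the 8 macrophage genes, *Aif1* was at 1654 RPKM in the spermatids of mouse 544 and followed the spermatid list (Pearson r = 0.92 over 27 testis libraries), so values are given with and without it. That choice was made after the values were seen. In bulk samples, fewer cells of a type and less RNA per cell cannot be told apart.

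Across the 20 sorted libraries, *C1qa*, *C1qb* and *C1qc* had Pearson correlations of 0.81, 0.82 and 0.83 with the mean log2 level of the 8 macrophage genes, and of 0.75, 0.72 and 0.75 with the 7 genes without *Aif1*. Those with the 8 peritubular and stromal genes were 0.60, 0.58 and 0.63. Other lists came near these values, with 0.77, 0.69 and 0.62 for the ovary marker genes and 0.67, 0.65 and 0.64 for the Leydig cell genes. The spermatid genes were at 0.068, 0.23 and 0.045. *C1ra* and *C1s1* had 0.92 and 0.91 with the stromal genes. With the 8 macrophage genes they had 0.774 and 0.775, and with the 7 without *Aif1* 0.92 and 0.87. *C2* had its highest value, 0.85, with the 6 Leydig cell genes.

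*C4b* stood apart from the other members, at -0.35 with the 7 macrophage genes, -0.56 with the stromal genes and 0.64 with the 6 spermatid genes. These libraries share mice and depth, and the lists themselves moved together, so the correlations are descriptions. Among the members, *C1ra* and *C1s1* (0.91) and *C1qa* and *C1qc* (0.84) were the closest of the pairs within the C1q and protease groups, and *C4b* was at -0.45 with *C1ra*. *C2*, on another chromosome, was as close, at 0.88 with *C1ra* and 0.84 with *C1s1*, so moving together was not particular to neighbours.

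The contents moved with the stages. The mean log2 level of the 7 macrophage genes was 0.002 to 2.66 in spermatogonia, -1.66 to 0.53 in primary spermatocytes, -0.23 to 0.55 in secondary spermatocytes and -1.44 to -0.89 in spermatids. The summed level of the 8 stromal genes was 32.0 to 850 RPKM in spermatogonia and 2.39 to 56.5 RPKM in primary spermatocytes. Of the lists, 4 of 8 macrophage genes, 8 of 8 stromal genes, 0 of 6 Leydig cell genes and 2 of 7 Sertoli cell genes tested passed as higher in spermatogonia than in the later stages, where 27% of all genes did. Of the macrophage genes, *Csf1r* and *Cd68* were above 0 in all 28 libraries. In the primary spermatocytes and in the spermatids of mouse 544, 1 gene of that list was at 0. A value above 0 does not show that a library held macrophages.

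The highest values of both kinds met in 2 libraries. The spermatogonia of mouse 648 had *Csf1r* at 11.8 RPKM, *Dcn* at 645 RPKM and the highest *C1qb*, *C1qc*, *C1ra*, *C1s1* and *C2* of all testis libraries. The primary spermatocytes of mouse 613 had a Leydig cell content of 2.87, against a median of -0.27 over the 6 primary spermatocyte libraries, and the highest *C1ra*, *C1s1* and *C2* of that stage. The part of these cells in the stage differences was not tested.

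**Figure D4:**
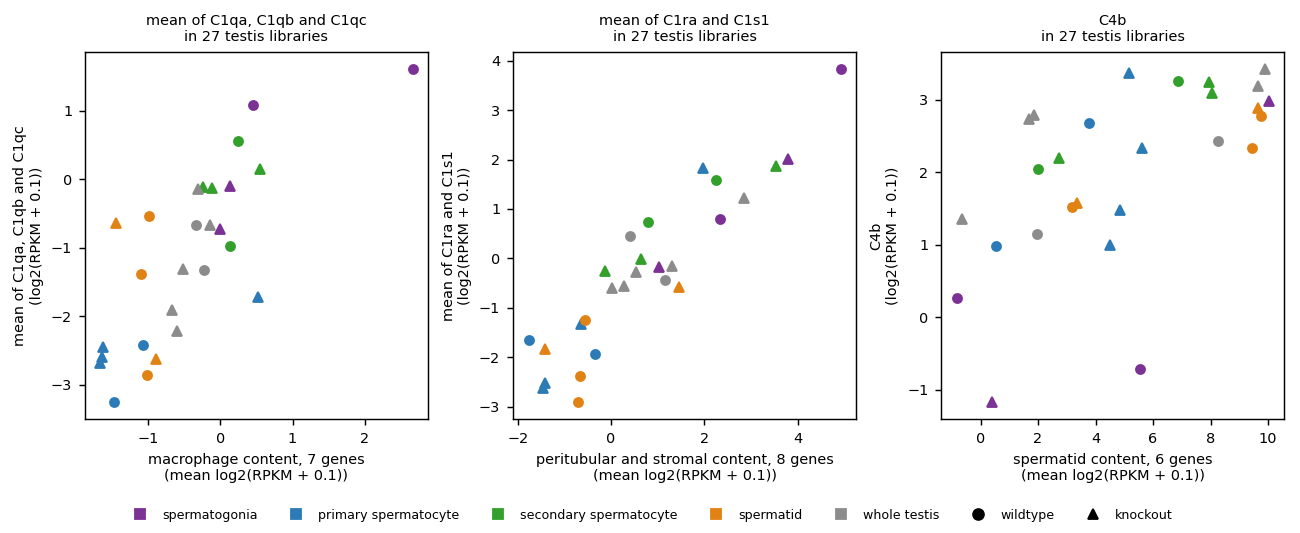
Complement genes against marker gene content in the 27 testis libraries, both as (mean) log2(RPKM + 0.1), with 1 point per library coloured by stage (circles wildtype, triangles knockout). Libraries with more macrophage content had higher C1q chains and those with more stromal content higher *C1ra* and *C1s1*, while the lowest *C4b* values were 3 spermatogonia libraries at a spermatid content of -0.83 to 5.54.

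Over the 27 testis libraries and 15014 genes, the genes most like the mean of the C1q chains were *Igf1* (Pearson r = 0.91), *Ndrg2* (0.89), *Apoe* (0.89), *Slc1a5* (0.86) and *Csf1r* (0.84), the last encoding the receptor of the macrophage growth factor. Those most like *C4b* were *Rnaseh2a* (0.93), *Art5* (0.92), *Gm5070* (0.91), *Fam89b* (0.91) and *Gsc2* (0.90).

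Other complement genes were taken from a list of 40, of which 33 had enough signal to be tested. In spermatogonia against the later stages, 11 were higher and 3 lower, shares near those of all genes (27% and 13.3%). Among the higher ones were the central component *C3* (2.18, SE 0.45, limma adjusted p = 0.00131), properdin *Cfp* (2.41, SE 0.55, adjusted p = 0.00257) and *Serping1*, the inhibitor of C1r and C1s (2.69, SE 0.73, adjusted p = 0.00799). The receptor genes *C3ar1*, *C5ar1*, *Itgam* and *Itgb2* and the regulator *Cr1l* also rose, by 1.55 to 2.72, with *Clu* at 2.20 and *C1qbp* at 1.31. Lower were the terminal components *C7* (-1.36) and *C8b* (-1.61) and the regulator *Cd55b* (-2.35).

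Between knockout and wildtype, 0 of the 7 genes differed in any of the 4 sorted stages (limma), and 0% of all genes passed in each stage. In spermatogonia, 2 of 7 were below an unadjusted p of 0.05, against 5.34% of all genes, *C1qa* at -1.76 (SE 0.69, adjusted p = 0.871) and *C1qc* at -1.95 (SE 0.84, adjusted p = 0.909). Over the stages together, 0 of 7 genes passed, against 0.0105% of all genes. The values there ranged from -0.56 (SE 0.39) for *C1qc* to 0.39 (SE 0.50) for *C4b*, beside a median of 0.24 for all genes.

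In whole testis, 0 of 7 genes differed between 5 knockout and 2 wildtype mice, as did 0% of 22776 genes (limma). *C2* was at 2.56, 3.27, 2.67, 2.70 and 4.04 RPKM in knockout mice 214, 269, 273, 286 and 308, and at 1.27 and 1.0 RPKM in wildtype mice 178 and 648. The groups did not overlap, but the share of all genes without overlap was not computed. The difference of 1.33 (SE 0.47) had a limma adjusted p of 0.353, and the exact permutation p of 0.0476 was the smallest that 21 arrangements can give. Of the 7 genes, 1 (*C2*) was below an unadjusted p of 0.05, against 10.9% of all genes, and the median of all genes was 0.39.

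*C4b* in whole testis was at 9.05, 6.56, 10.7, 6.80 and 2.47 RPKM in the knockout mice, in the same order, and at 5.29 and 2.12 RPKM in the wildtype mice. The groups overlapped (0.91, SE 0.65, limma adjusted p = 0.684; exact p = 0.190). The C1q chains and the proteases also overlapped between genotypes, with differences from -0.59 (SE 0.82) for *C1qc* to 0.25 (SE 0.71) for *C1ra*. *Prm1* was at 603, 1152 and 1922 RPKM in the testes of mice 178, 214 and 273 and at 0.439 to 1.16 RPKM in the other 4.

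Whole testes were not shown to differ from the sorted germ cells in these transcripts. In whole testis against the mean of the sorted stages, 0 of 7 genes passed (limma), against 0.021% of all genes, and 0 of the 7 were below an unadjusted p of 0.05, against 6.04% of all genes. The values ranged from -0.76 (SE 0.38) for *C2* to 0.49 (SE 0.68) for *C1s1*.

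The ovary, a single library without a replicate, had the highest value of all 7 genes. *C1qa* was at 12.3 RPKM, 48.0 times the highest of 7 whole testes, and *C1s1* at 121 RPKM, 38.6 times. *C1qc* at 19.2, *C2* at 73.4, *C1ra* at 17.4 and *C1qb* at 10.2 RPKM were 20.7, 18.1, 9.87 and 5.36 times the highest testis. *C4b*, at 32.1 RPKM, had the smallest ratio, 3.01 times.

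Per length, on the longest transcript, the order in the ovary was *C1s1* (21.9 RPKM), *C1ra* (17.4), *C2* (14.5), *C1qc* (13.1), *C1qa* (12.3), *C4b* (11.2) and *C1qb* (10.2). The copies did not follow. *C4a* was at 0.738 RPKM in the ovary and at 1.76 to 7.62 RPKM in whole testes, and *C1s2* at 0.0140 RPKM and 0.0210 to 0.226 RPKM. The stromal content of the ovary (5.80) was above that of the testis libraries (up to 4.93), and its macrophage content without *Aif1* (1.82) was within theirs.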

How the data were processed

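The members and the gene lists were chosen with earlier results of these data known. The authors aligned paired 101-base reads with TopHat2 to Ensembl release 72 and deposited a matrix of RPKM per transcript, with a column for each library. Their methods also name PEER and quantile normalization, but 93.3 to 94.7% of low values in 27 columns fell within 0.06 of a whole read (14.4% for mouse 613), so depth was estimated from these steps. Counts were not modelled. GENCODE M21 (GRCm38) gave the genes and matched 90432 of 94480 transcripts (95.7%), which were summed per gene.

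In these columns overlapping transcripts hold the same reads: 2 *C1s1* transcripts of 12 exons agreed within 20% in 25 of 25 libraries above 0. A sum therefore counts shared reads repeatedly, and levels between genes were compared on the longest transcript. The column of mouse 613 splits reads between transcripts (0 and 1.24 RPKM for that pair).

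Groups were tested with limma 3.58.1 (eBayes with trend) in R 4.3.3 on log2(RPKM + 0.1), for genes whose mean in the fit reached 0.1 RPKM, with Benjamini-Hochberg adjustment over all genes and a threshold of 0.05. Fits used 20 sorted libraries (8 groups, 12 residual degrees of freedom), 7 whole testes (5) or 27 testis libraries (17). Libraries of 1 mouse enter the same fit, so the fit with the mouse as a block was the alternative. Same-mouse residuals had a median correlation of 0.479 (22 pairs, -0.147 to 0.703), against -0.046 between mice. In a test of the code with 200 genes changed by a known amount, each fit recovered 100%. Single genes were tested by exact two-sided permutation of libraries within mice or of whole testes. Content is the mean log2(RPKM + 0.1) of a marker list. Named genes are the 7 members, their copies, the listed complement and marker genes, and the 5 genes most correlated with C1q and with *C4b*. The sources list separate mice. The limma p-values of the fits with sorted cells measure the spread between libraries, several of which share a mouse, and not that between mice.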

Additional observations from a re-analysis of the deposited data

Results flagged for a closer look

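In groups of 4 to 10 samples, member values in RPKM were searched for a library far from the others. The 14 groups were those of the knockout primary spermatocytes and the knockout whole testes, and 4 such values were found. Chance gives about 1 in 20 only where values are normally distributed, which was not checked for RPKM. The log2 scale used elsewhere was not searched. Most of the 4 came from the library of mouse 613, so they are not independent. In the primary spermatocytes of knockout mouse 613, *C1ra* was at 2.36 RPKM with the next library at 0.167 RPKM, *C1s1* was at 4.99 RPKM with the next at 0.818 RPKM, and *C2* was at 9.46 RPKM with the next at 2.94 RPKM. The same library had the highest macrophage, stromal and Leydig cell content of its stage, and its column divides reads between transcripts in another way than the others. In the whole testis of knockout mouse 308, *C1ra* was at 1.77 RPKM with the next testis at 0.547 RPKM, beside a stromal content of 2.85 (median of the 7 testes 0.54). The part of these in the values was not tested.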

How the results depend on the processing

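In spermatogonia against the later stages, the 7 calls became 4 with quantile normalization, 0 among the libraries of the largest set without the same transcripts (mice 178, 286 and 351), 4 without mice 648 and 613 and the spermatogonia of mouse 544 (chosen after seeing the data), and 1 to 7 when leaving out 1 mouse. The 7 wildtype calls became 0 in that set, 1 without those libraries and 0 to 7 when leaving out 1 mouse. The 0 knockout calls became 1 without the spermatogonia of mouse 544, 1 without those libraries and 0 to 1 by mouse. Primary spermatocytes against spermatogonia gave 3 to 6 calls by mouse. Secondary against primary spermatocytes gave 1 with a pseudocount of 1, 5 with the replicate block and 0 to 5 by mouse, and spermatids against secondary spermatocytes gave 4 with the replicate block. The labels name the mouse, which gives the pairing, and the replicate block changed no other call. Signs turned only among differences that passed no test. For knockout minus wildtype in sorted cells these were 0.39 for *C1qa* and 0.073 for *C1qb* with a pseudocount of 0.01, 0.032 for *C1qb* with the block, -0.058, -0.14 and -0.13 for *C1s1* with a pseudocount of 1, quantile normalization and the longest transcript, 0.58 for *C1ra* and -0.84 for *C4b* in the largest set, and -0.13 and -0.41 for *C4b* without the spermatogonia of mouse 544 and without those libraries. In whole testis they were 0.054 for *C1qa* and -0.23 for *C1qb* with quantile normalization, 0.19 for *C1s1* with the longest transcript and -0.39 for *C1qb* in the largest set. For whole testis against sorted cells they were 0.47 and 0.29 for *C1qa* and *C1qb* with a pseudocount of 0.01, -0.0058 for *C1s1* with a pseudocount of 1, -0.27 for *C1s1* with the transcript of highest mean, and 0.38, 0.048 and 0.35 for *C1qb* in the largest set, without the spermatogonia of mouse 544 and without those libraries. Leaving out 1 mouse gave, for knockout minus wildtype in sorted cells, -0.52 to 0.25 for *C1qa*, -0.45 to 0.97 for *C1s1*, -0.69 to 0.47 for *C1qb*, -0.95 to 0.052 for *C1ra*, -0.26 to 1.16 for *C4b*. It gave, for knockout minus wildtype in whole testis, -1.18 to 0.36 for *C1s1*, -0.39 to 0.71 for *C1qb*, -0.15 to 0.39 for *C1ra*. It gave, for whole testis against sorted cells, -0.16 to 0.056 for *C1qa*, -0.12 to 1.17 for *C1s1*, -0.24 to 0.26 for *C1qb*, -0.44 to 0.055 for *C1ra*. The share of all genes called differed between the settings too. The causes were not tested. Depth limits *C1qa* most, at 3 reads or fewer in 10 of 26 testis libraries.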
